A study of Mus musculus with 2 samples.

Results

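Mature neutrophils that carried little Il1b were picked out of 2 droplet libraries of spleen cells by fixed shares of their transcripts. A cell was kept when it held 500 to 5000 genes, with under 15% mitochondrial and under 30% ribosomal UMIs (unique molecular identifiers, each marking 1 captured transcript). Among kept cells, those with at least 1% of UMIs from S100a8 and S100a9, under 1% from Camp, Ngp and Ltf, and Il1b either below 2 UMIs or below 0.1% of UMIs were taken, and are called Il1b-low cells here. The rule found 2787 cells among 20060 kept cells, 767 of 9424 in the wild-type library and 2020 of 10636 in the SCD library. The cells were chosen by their own S100a8, S100a9, Camp, Ngp, Ltf and Il1b counts, so contrasts with other neutrophils are descriptions and none was tested.

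Both libraries came from untreated mice aged 12 to 16 weeks with a mixed genetic background, 1 mouse for each genotype. The mouse labelled SCD, a Berkeley sickle cell disease animal, was homozygous for Hbatm1Paz, for Hbbtm1Tow and for the transgene Tg(HBA-HBBs)41Paz, which supplies human globins with the sickle beta chain. The control, labelled wild-type, was also homozygous for Hbatm1Paz but heterozygous for Hbbtm1Tow and hemizygous for the transgene, so it carries the sickle transgene too. Spleen suspensions were freed of erythrocytes by lysis and enriched for dendritic cells (DCs) by removing other cells on magnetic beads, so the neutrophils are cells that this depletion left behind, and their shares are shares of an enriched suspension. With 1 mouse in each group, no difference between the libraries has a replicate check: genotype, mouse and library cannot be told apart, and every interval covers counting error only.

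The libraries held 10845 and 13447 barcodes and 97880318 and 189688217 UMIs, of which the Il1b-low cells held 3993252 in the wild-type library and 10463940 in the SCD library. The libraries shared 88 barcodes, 22 of them in kept cells of both, and 0 were Il1b-low in both. Free neutrophil RNA differed between them: cells other than neutrophils had a median of 0.0575% of UMIs from S100a8 and S100a9 in the wild-type library and 0.300% in the SCD library.

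Neutrophils mature in the bone marrow, and in the mouse also in the spleen, through stages that each make a different set of granule proteins. Promyelocytes fill azurophil granules with Mpo, Elane and Prtn3, and myelocytes fill specific granules with Camp, Ngp, Ltf and Lcn2. Band cells fill gelatinase granules with Mmp9 before the mature cell acquires the receptor Cxcr2 and leaves for the blood. Mature cells that meet an inflammatory signal, or are held in tissue, transcribe Il1b, the gene of the cytokine interleukin 1 beta, together with immediate early and NF-kB response genes.

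Promoter sequence is shown for 3 genes picked from the comparison with Il1b-rich cells: Retnlg and Mmp8, both higher in Il1b-low cells, and Steap4, lower in them. They do not stand for the named genes of that comparison, whose motif counts are given further below. Each run is the 250 bases before the start of the gene in RefSeq on GRCm38.p6, 5′ to 3′ on the strand of the gene, which is the forward strand for all 3. The windows are chr16:48872358-48872607 for Retnlg, chr9:7558179-7558428 for Mmp8 and chr5:7960222-7960471 for Steap4. Capitals mark matches on either strand to a C/EBP motif (TTGCNNAA) or an NF-kB motif (GGGNNTTCC).
Retnlg: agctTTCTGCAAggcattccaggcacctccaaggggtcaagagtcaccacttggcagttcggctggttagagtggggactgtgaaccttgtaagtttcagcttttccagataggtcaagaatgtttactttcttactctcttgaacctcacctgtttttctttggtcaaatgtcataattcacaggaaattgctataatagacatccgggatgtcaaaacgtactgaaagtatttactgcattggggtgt
Mmp8: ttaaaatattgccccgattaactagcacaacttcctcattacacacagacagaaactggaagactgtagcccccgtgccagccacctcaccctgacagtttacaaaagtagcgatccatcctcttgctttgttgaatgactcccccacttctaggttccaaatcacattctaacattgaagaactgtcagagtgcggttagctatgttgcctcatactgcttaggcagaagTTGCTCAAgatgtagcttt
Steap4: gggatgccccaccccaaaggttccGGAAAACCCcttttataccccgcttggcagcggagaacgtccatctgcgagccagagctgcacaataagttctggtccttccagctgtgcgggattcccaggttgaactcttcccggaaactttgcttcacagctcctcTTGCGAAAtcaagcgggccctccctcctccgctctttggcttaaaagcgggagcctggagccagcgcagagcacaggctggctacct
The C/EBP match lay at -246 to -239 in Retnlg (on the reverse strand), at -19 to -12 in Mmp8 and at -87 to -80 in Steap4, counted back from the start, and the NF-kB match of Steap4 lay on the reverse strand at -226 to -218. Of 27025 genes in the RefSeq table, 10.8% held the C/EBP letters and 5.61% the NF-kB letters in a window of this length, so these matches are descriptions of the sequence and not sites.

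The label was checked against mature neutrophil markers. Retnlg, which encodes a resistin-like secreted protein, stood at 11923 CPM (UMIs of the gene per 1000000 UMIs of the cells) in the wild-type Il1b-low cells and 36731 CPM in the SCD ones. Mmp8, the neutrophil collagenase, stood at 743 and 2134 CPM, Csf3r, the G-CSF receptor, at 1419 and 828 CPM, and Cxcr2, the receptor for CXC chemokines, at 1147 and 959 CPM. All 11 genes of the mature neutrophil list were detected in both libraries. The list made up 2.16% of UMIs in the wild-type Il1b-low cells and 5.06% in the SCD ones, against 0.0492% and 0.0637% in cells other than neutrophils. In mature neutrophils with more Il1b it made up 2.30% and 2.98%. In neutrophils with 1 to under 5% of UMIs from Camp, Ngp and Ltf it made up 4.56% and 3.84%. In the wild-type library the list was thus not highest in the Il1b-low cells. By cell, a Retnlg UMI was read in 94.0% of wild-type and 95.1% of SCD Il1b-low cells and a Csf3r UMI in 97.9% and 89.3%, but an Mmp8 UMI in 57.2% and 85.4%, and a UMI of Stfa2l1, a further marker of the label, in 24.8% and 25.3%. Thinned to 1000 UMIs per cell, these shares were 82.3% and 93.0% for Retnlg, 77.6% and 56.6% for Csf3r, 35.3% and 71.8% for Mmp8, and 16.8% and 17.1% for Stfa2l1.

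Some of the cells also carried transcripts of other cell types. In the wild-type library 176 Il1b-low cells (22.9%, exact 95% binomial interval 20.01 to 26.1%) took 0.5% or more of their UMIs from markers of other cell types, and in the SCD library 211 did (10.4%, 9.15 to 11.9%). DC markers led in 133 of the 176 wild-type cells and in 76 of the 211 SCD cells, monocyte markers in 28 and 44, macrophage markers in 10 and 46, erythroid markers in 5 and 32, and B cell markers in none and 13. The wild-type cells of this kind were large, with a median of 11604.5 UMIs, whereas the SCD ones were small, with a median of 1699 UMIs. A doublet caller marked 129 wild-type Il1b-low cells (16.8%) and 50 SCD ones (2.48%), and none was removed. Among Il1b-rich mature neutrophils, the cells that met the same rule except for having more Il1b, 3.49% and 1.06% carried other-type markers. A further 3 and 29 Il1b-low cells took 0.5% or more of their UMIs from the azurophil genes Mpo, Elane, Prtn3, Ctsg and Ms4a3, with a median of 23666 and 24260 UMIs, which are promyelocyte transcripts rather than those of mature cells.

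Results are therefore given for all Il1b-low cells and for the core, the cells left after removing those with 0.5% or more of other-type, azurophil or plasma cell transcripts. The core held 588 wild-type and 1778 SCD cells, and this filter was chosen after the data were seen. In the core, the DC gene Cd74, the invariant chain of MHC class II, stood at 210 and 59.1 CPM, against 5258 and 834 CPM in all Il1b-low cells. Elane, neutrophil elastase, stood at 3.70 and 38.6 CPM in the core against 345 and 1517 CPM in all. The median cell of the core held 2560 UMIs and 1011 genes in the wild-type library and 4272 UMIs and 1177 genes in the SCD library.

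Il1b-low cells took a larger share of the SCD library than of the wild-type library. They were 8.14% of kept cells (exact 95% interval 7.59 to 8.71%) in the wild-type spleen and 19.0% (18.3 to 19.8%) in the SCD spleen, a ratio of 2.33 (2.15 to 2.54, counting error only). Among neutrophils alone, cells with at least 1% of S100a8 and S100a9, the shares were 16.6% of 4617 and 26.5% of 7631 cells, a ratio of 1.59 (1.47 to 1.73). Among mature neutrophils, which had under 1% of Camp, Ngp and Ltf, they were 19.0% of 4036 and 66.1% of 3058 cells, a ratio of 3.48 (3.20 to 3.78). Core cells were 6.24% and 16.7% of kept cells, a ratio of 2.68 (2.44 to 2.95).

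The other mature class went the other way. Il1b-rich cells were 34.7% of kept cells in the wild-type library and 9.76% in the SCD library, a ratio of 0.281. Transitional neutrophils, with 1 to under 5% of UMIs from Camp, Ngp and Ltf, were 1.09% and 9.23%. When every cell was first thinned to 1000 UMIs and the rule then applied, the Il1b-low cells were 13.2% and 20.4% of kept cells, a ratio of 1.55 (1.44 to 1.66). Their ratio among neutrophils was then 1.06 (0.991 to 1.14, counting error only). With fewer UMIs to show Il1b, more cells met the rule, 1220 in place of 767 in the wild-type library and 2156 in place of 2020 in the SCD library, so the thinned class is not the same set of cells.

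**Figure D1:**
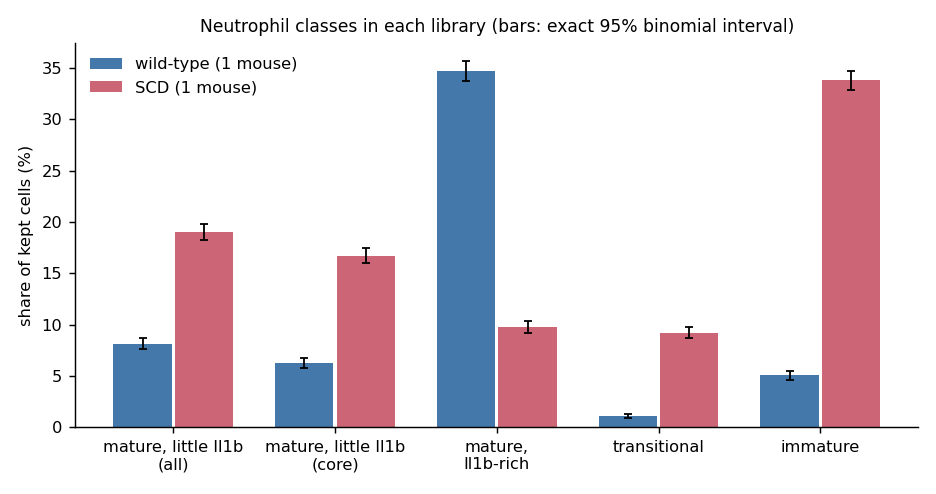
Share of kept cells (%) in 5 neutrophil classes for the wild-type and the SCD library, 1 mouse each, with exact 95% binomial intervals that cover counting error only. Mature cells with little Il1b were 8.14% and 19.0% of kept cells and Il1b-rich ones 34.7% and 9.76%.

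Little Il1b did not mean the same in the 2 libraries. No Il1b UMI was read in 210 wild-type cells (27.4%) and in 1349 SCD cells (66.8%), whereas 343 (44.7%) and 345 (17.1%) had 2 UMIs or more but stayed below 0.1%. Just inside the Il1b limit, with 2 or more UMIs and 0.05 to under 0.1%, lay 274 wild-type and 250 SCD cells, and just outside, with 0.1 to under 0.15%, lay 303 and 174. Just inside the limit on S100a8 and S100a9, at 1 to under 1.5%, lay 24 and 105 cells, and just outside, at 0.5 to under 1%, lay 43 and 365. Just inside the limit on Camp, Ngp and Ltf, at 0.5 to under 1%, lay 31 and 252 cells, and just outside, at 1 to under 1.5%, lay 23 and 174. In the wild-type library most cells near a limit of the rule therefore lay near the Il1b limit, and in the SCD library many also lay near the other 2 limits.

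The Il1b-low cells varied widely in S100a8 and S100a9, which encode the subunits of calprotectin, a calcium- and zinc-binding protein that fills the neutrophil cytosol. The pair took a median of 15.1% of UMIs in the wild-type cells and 33.6% in the SCD cells, and 19.96% and 34.6% in the core. At 30% or more lay 124 wild-type cells (16.2%) and 1358 SCD cells (67.2%). Il1b-rich cells had a median of 13.9% and 18.7%, and transitional cells 33.2% and 35.9%. The rule used this pair of genes only at its 1% limit, and the spread above it is given as a description.

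**Figure D2:**
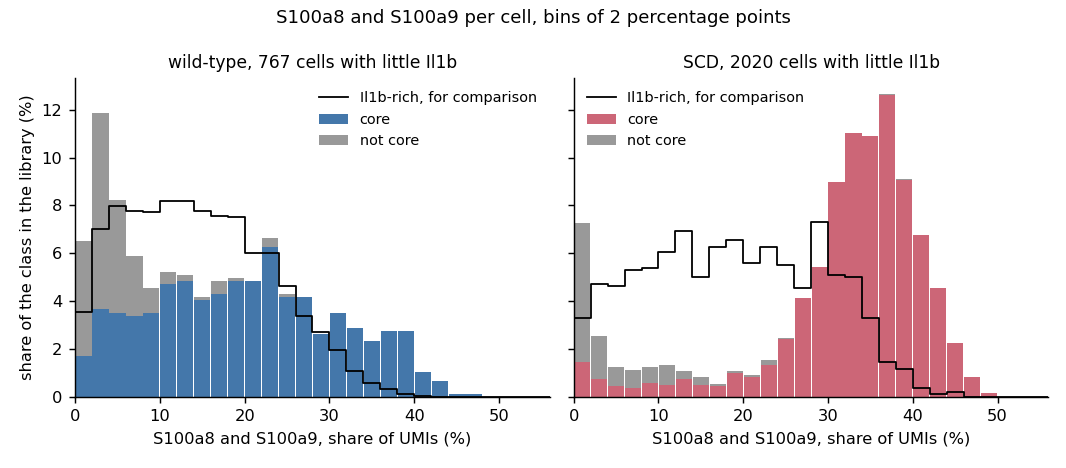
Share of each cell's UMIs from S100a8 and S100a9 (%, bins of 2 percentage points) among mature neutrophils with little Il1b, as the share of that class in each library (%), with core cells in color, cells outside the core in grey and Il1b-rich cells as a black line. Wild-type cells spread from 1% upward with a median of 15.1%, and SCD cells peak near their median of 33.6%.

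The Il1b-low cells were next set against the Il1b-rich cells of the same library. Of 2503 genes expressed at 50 CPM or more, 123 (4.91%) were at least 2-fold higher and 68 (2.72%) at least 2-fold lower in all Il1b-low cells in both libraries, 7.63% in either direction. In the core these counts were 26 (1.11%) and 7 (0.298%) of 2347 genes, 1.41% in either direction, Ngp and Il1b of the rule included. Of the 26 genes higher in the core, 15 were among the 123 and 11, Retnlg, Mmp8 and Lcn2 among them, passed in the core alone, and of the 7 lower ones 5 were among the 68. The set of 123 was led by Elane, Prtn3, Ctsg and Mpo, the azurophil genes, and all 5 tested DC markers and 6 of 7 tested monocyte markers were in it.

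The genes called in the core are described by role. Among granule genes, Mmp8 stood at 1350 CPM in wild-type core cells against 397 CPM in core Il1b-rich cells, and at 2573 against 555 CPM in the SCD library. Its log2 ratio, computed with 5 CPM added to both values as for all log2 ratios here, was 1.75 and 2.20. Mmp25, a membrane-bound gelatinase granule protease, had log2 ratios of 1.28 and 1.22. Lcn2, the iron-siderophore binding protein of specific granules, stood at 2214 against 1051 CPM and at 3929 against 1552 CPM, with log2 ratios of 1.07 and 1.34. Cybb, the catalytic subunit of the NADPH oxidase, had log2 ratios of 1.47 and 2.21, whereas its partner Cyba had -0.15 and -0.33. The specific granule list had 3 of 11 tested genes higher (27.3%, against 1.11% of all genes) and none lower. Its medians were 0.43 and 0.76 against -0.14 and -0.35 for all genes tested. Itgb2l, an integrin gene counted among the 3, reached 50 CPM only in the Il1b-low cells of each library, so its direction was set by that limit.

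Several of the genes named, all of which had to pass 2-fold in both libraries to be named, encode surface proteins. The adhesion and egress list as a whole had 2 of 13 tested genes higher (15.4%, against 1.11% of all genes) and none lower. It had 3 above 0 in both libraries, with medians of -0.27 and -0.38 against -0.14 and -0.35 for all genes tested. Itgb2l, an integrin beta chain of immature neutrophils, stood at 50.8 against 3.48 CPM in the wild-type library and at 65.2 against 8.76 CPM in the SCD library, log2 ratios of 2.72 and 2.35. Cd177, a GPI-anchored protein that binds the endothelium, stood at 278 against 59.7 CPM and at 593 against 126 CPM, log2 ratios of 2.13 and 2.19. Ly6g, the mouse neutrophil surface antigen, stood at 196 against 49.6 CPM and at 771 against 191 CPM, log2 ratios of 1.88 and 1.99. Ly6c2, of the same family and also high in monocytes, had log2 ratios of 2.17 and 2.27. These genes were higher still in core transitional cells, where Cd177 stood at 1272 and 1293 CPM and Itgb2l at 289 and 190.0 CPM.

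Retnlg stood at 22123 against 7615 CPM in the wild-type core and at 44942 against 13566 CPM in the SCD core, log2 ratios of 1.54 and 1.73. Adpgk, an ADP-dependent glucokinase, stood at 160 against 17.7 CPM and at 272 against 52.6 CPM, log2 ratios of 2.86 and 2.27. Ifitm6, of the interferon-induced transmembrane family, had log2 ratios of 1.63 and 1.91, in contrast to Ifitm1 of the same family, with -0.65 and -2.09. S100a10, the partner of annexin A2, had log2 ratios of 1.83 and 1.73 in the core. Over all Il1b-low cells S100a10 turned to -0.071 when only cells with no Il1b UMI were taken and to -0.29 at 25% or more of S100a8 and S100a9. Stfa2l1, a stefin protease inhibitor named as a marker of these cells, was not higher in them: it stood at 513 against 606 CPM in the wild-type library and at 509 against 869 CPM in the SCD library.

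Besides Il1b itself, 6 genes were at least 2-fold lower in the core than in Il1b-rich cells in both libraries. Nfkbia, the inhibitor of NF-kB that NF-kB itself induces, stood at 127 against 298 CPM and at 86.0 against 242 CPM, log2 ratios of -1.19 and -1.44. Csf1, the macrophage growth factor, stood at 74.6 against 167 CPM and at 6.44 against 74.1 CPM, log2 ratios of -1.11 and -2.79. Steap4, a metalloreductase of the cell membrane, stood at 41.8 against 95.1 CPM and at 24.7 against 246 CPM, log2 ratios of -1.10 and -3.08. The other 3 were Clec4n, the C-type lectin Dectin-2, with -1.11 and -2.36, Mefv, which encodes pyrin, with -1.03 and -2.60, and Cd14, the LPS co-receptor, with -1.02 and -2.21. For each of the 6 the difference was larger in the SCD library, which was not tested.

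The medians of all genes tested were -0.14 in the wild-type and -0.35 in the SCD library. Those of the immediate early, survival, inflammatory, interferon and receptor lists lay below them in both. Those of the heat shock list, 0.74 and -0.28, and of the NRF2 and antioxidant list, -0.04 and -0.19, lay above. None of 14 tested immediate early genes was called, and all 14 had negative log2 ratios in both, with medians of -0.60 in the wild-type and -1.36 in the SCD library. Junb, a subunit of the AP-1 transcription factor, stood at 823 against 1456 CPM and at 161 against 763 CPM. The survival and apoptosis list had medians of -0.54 and -0.82, with Mcl1, a short-lived BCL2-family protein on which neutrophils depend, at 1551 against 2422 CPM and at 658 against 1424 CPM. The inflammatory and NF-kB list had 2 of 10 tested genes lower (20%, against 0.298% of all genes), Nfkbia and Csf1, and medians of -0.52 and -0.74, the interferon list -0.52 and -0.76, and the list of chemoattractant and cytokine receptors -0.36 and -0.63. In the SCD library Csf1 reached 50 CPM only in the Il1b-rich cells, so its direction there was set by that limit. The cytoskeleton list stayed at -0.07 in both, near Actb, at -0.09 and -0.20, and the glycolysis list stood above 0, at 0.11 and 0.25.

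**Figure D3:**
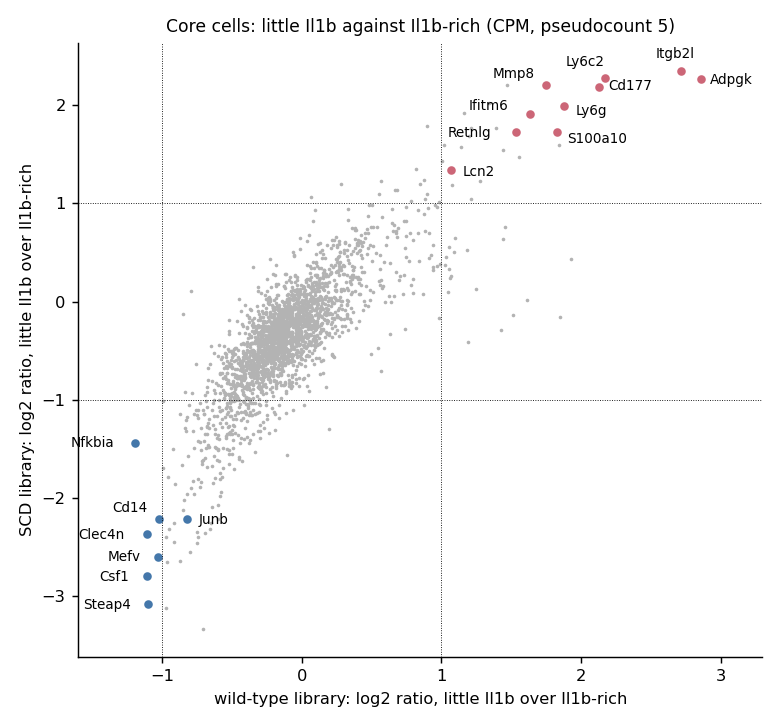
Log2 ratio of CPM (pseudocount 5) between core mature neutrophils with little Il1b and core Il1b-rich ones, in the wild-type library (x axis) and the SCD library (y axis), each point 1 expressed gene and dotted lines at 2-fold. Mmp8, at 1.75 and 2.20, and Cd177 lie at the upper right, and Steap4, at -1.10 and -3.08, and Nfkbia at the lower left.

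Of the genes named higher in the core, 8 in number, 7 had a promoter window in the RefSeq table, and 2 of them, Ly6g and Mmp8, held the C/EBP letters and none the NF-kB letters. Of the 6 named lower, 4 had a window, and Steap4 alone held either motif. The AP-1 motif (TGANTCA), was in none of these windows and in 7.82% of those of all genes.

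Compared with transitional neutrophils, the next earlier stage, the core Il1b-low cells were lower in 5 of 12 tested specific granule genes (41.7%, against 2.15% of all genes). The classes were split on Camp, Ngp and Ltf, which belong to that list though they were not counted. The count is therefore no result about specific granule genes. Of 11 tested immediate early genes 5 were higher (45.5%, against 3.35% of all genes). In both libraries 70 of 2091 genes (3.35%) were at least 2-fold higher and 45 (2.15%) at least 2-fold lower, 5.5% together. Over all Il1b-low cells 56 (2.47%) and 32 (1.41%) of 2264 genes were, 3.89% together. The wild-type library held only 103 transitional cells. Wfdc17, a small secreted whey acidic protein, stood at 1452 against 24.6 CPM in the wild-type core and at 1407 against 167 CPM in the SCD core, log2 ratios of 5.62 and 3.04. Ccl6, a CC chemokine of myeloid cells, had log2 ratios of 3.005 and 2.62, Ifitm1 3.76 and 2.76, and Jaml, an adhesion molecule used in crossing epithelia, 2.95 and 2.76. Clec7a, the beta-glucan receptor Dectin-1, had log2 ratios of 4.62 and 2.81, and Pla2g7, which degrades platelet-activating factor, 3.72 and 2.60. Srgn, the proteoglycan core of granules, had 2.85 and 2.40, and Sirpb1c, a SIRP-family receptor, 4.41 and 2.38.

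Genes lower than in transitional cells included Serpinb1a, an inhibitor of neutrophil serine proteases, with log2 ratios of -2.84 and -1.72, and Chil3, a chitinase-like granule protein, with -2.66 and -1.72. Thbs1, thrombospondin, had -2.41 and -2.27, Abca13, a lipid transporter, -2.13 and -2.09, and Nt5e, the ectonucleotidase CD73, -2.12 and -1.74. Olfml2b, Golim4 and Trp53inp2 had log2 ratios from -2.39 to -1.78. The specific granule list had none higher and medians of -1.08 and -0.99, and the immediate early list none lower and medians of 1.43 and 0.75, against 0.31 and 0.04 for all genes tested. The list of chemoattractant and cytokine receptors had 1 of 17 higher (5.88%, against 3.35% of all genes).

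For several of the named genes the core level lay between the 2 neighbouring classes. Mmp8 stood at 4563, 1350 and 397 CPM in wild-type transitional, Il1b-low and Il1b-rich core cells and at 4273, 2573 and 555 CPM in the SCD ones. Csf3r ran the other way, at 367, 2205 and 3336 CPM and at 322, 971 and 3009 CPM. In the SCD library Retnlg was an exception, at 31775, 44942 and 13566 CPM, highest in the Il1b-low cells, while in the wild-type library it stood at 36551, 22123 and 7615 CPM. Ly6g in the SCD Il1b-low cells came close to its transitional level, at 831, 771 and 191 CPM, and in the wild-type cells it did not, at 654, 196 and 49.6 CPM.

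Between the libraries, more genes were lower than higher in the SCD Il1b-low cells. Of 2939 expressed genes, 317 (10.8%) were at least 2-fold lower and 68 (2.31%) at least 2-fold higher in SCD, 13.1% together, and the median log2 ratio of all genes was -0.37. With median-of-ratios scaling in place of CPM the split was 171 lower and 147 higher, so the balance of directions belongs to the scaling and ratios are best read against that median. In the core, 187 (7.54%) of 2480 genes were lower and 36 (1.45%) higher, 8.99% together, with a median of -0.34. Among the genes furthest down over all Il1b-low cells, and not expressed enough to be tested in the core, were Ccnd1, a G1 cyclin, at a log2 ratio of -3.30, H2-Eb2, an MHC class II chain, at -3.07, Cd209d, a lectin of the DC-SIGN family, at -2.96, and Ace, the angiotensin-converting enzyme, at -2.90. Ace turned to 0.47 among cells with no Il1b UMI and to 0.12 at 25% or more of S100a8 and S100a9. Among those furthest up over all cells were the azurophil genes Ctsg, at 2.49, and Ms4a3, at 2.32, and the proliferation gene Top2a, at 2.39. The DC marker list differed too: all 7 tested genes were lower in SCD, with a median of -2.60 over all Il1b-low cells, and the 4 tested in the core had a median of -1.46, and their part in other differences was not tested.

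Immediate early genes had the lowest core median of the non-marker lists with SCD over wild-type ratios. Of 15 tested, 9 were at least 2-fold lower in SCD (60%, against 10.8% of all genes) and none higher, with a median log2 ratio of -1.12. In the core 8 of 14 were lower (57.1%, against 7.54% of all genes), with a median of -1.18. The list was lower in SCD in every other class of cells measured as well, from 1.25% to 0.806% of UMIs in Il1b-rich cells, from 0.255% to 0.153% in transitional cells, from 0.108% to 0.0811% in immature cells and from 0.369% to 0.196% in cells other than neutrophils, against 0.858% and 0.320% in the core. Fos, the AP-1 subunit that responds first, stood at 419 CPM in the wild-type core (95% Poisson interval 391 to 449.5 CPM) and at 19.1 CPM in the SCD core (16.2 to 22.3 CPM), a log2 ratio of -4.14. Fos reached 50 CPM in the wild-type core alone, so its direction in the core count was set by that limit. Dusp1, a phosphatase that switches off MAP kinases, stood at 804 and 99.6 CPM, a log2 ratio of -2.95. Junb stood at 823 and 161 CPM, -2.32, and Jund, a steadier AP-1 subunit, at 839 and 271 CPM, -1.61.

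Fos was lower in SCD among core Il1b-rich cells too, at 628 and 87.2 CPM. After thinning each cell to 1000 UMIs, which left out 12 wild-type and 10 SCD core cells, a Fos UMI was found in 36.1% of wild-type and 2.09% of SCD core cells, and in 39.7% and 9.02% of core Il1b-rich cells. MHC class II cells, which transcribe immediate early genes too and so give no free-RNA level for Fos, had 4.03% and 2.32%. Without thinning, the core shares were 57.7% and 7.26%, at median depths of 2560 and 4272 UMIs, and those of MHC class II cells 19.0% and 11.4% at 8586 and 9459 UMIs.

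Survival genes were lower as well, in these cells and in others. In the core 5 of 8 tested survival and apoptosis genes were at least 2-fold lower in SCD (62.5%, against 7.54% of all genes) and none higher, with a median of -1.17 against -0.34 for all genes. The list took 0.236% of UMIs in the wild-type core and 0.109% in the SCD core, and also 0.224% and 0.119% in cells other than neutrophils. Mcl1 stood at 1551 and 658 CPM, a log2 ratio of -1.23, and Pmaip1, a BH3-only protein that binds the MCL1 protein, at 97.3 and 10.3 CPM, -2.74. Pmaip1, counted among the 5, reached the 50 CPM needed for testing only in the wild-type library, so its direction was set by that limit. Of 10 tested inflammatory cytokine and NF-kB genes 2 were lower (20%) and none higher, with a median of -0.72. Csf1, counted among the 2, stood at 74.6 and 6.44 CPM, -2.80, and its direction was set by the same limit. Ccl5, on none of the lists and a chemokine also made by T and NK cells and DCs, stood at 352 and 35.0 CPM, -3.16. Entpd1, the ectonucleotidase CD39 and also on none of them, stood at 182 and 20.2 CPM, -2.90.

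Receptor genes were lower in part. Of 20 tested chemoattractant and cytokine receptors 5 were at least 2-fold lower in the SCD core (25%, against 7.54% of all genes) and none higher, with a median of -0.71 against -0.34. Csf3r stood at 2205 and 971 CPM, a log2 ratio of -1.18, and Il1rap, the accessory chain of the interleukin 1 receptor, at 128 and 18.5 CPM, -2.51. Il1rap, counted among the 5, reached 50 CPM only in the wild-type library, so its direction was set by that limit. Ptafr, the receptor for platelet-activating factor, had -1.35, Tnfrsf1b, a TNF receptor, -1.85, and Il6ra, the interleukin 6 receptor, -1.10. Cxcr2 and Cxcr4, the receptors that pull neutrophils out of and back to the marrow, had -0.69 and -0.75. Thinned to equal depth, a Csf3r UMI was found in 84.7% of wild-type and 61.1% of SCD core cells, against 94.96% and 94.0% of core Il1b-rich cells and 3.27% and 1.05% of MHC class II cells.

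Pattern recognition and adhesion lists had few calls. Clec7a stood at 1127 and 384 CPM, a log2 ratio of -1.54, and was 1 of 2 genes at least 2-fold lower among 16 tested pattern recognition and Fc receptors (12.5%, against 7.54% of all genes), with Cd300ld, an activating receptor, at -1.16. Of 14 tested adhesion and egress genes 2 were lower (14.3%, against 7.54% of all genes) and 2 higher (14.3%, against 1.45%). The median was -0.40, and the higher ones were Ly6g, at a log2 ratio of 1.95, and Cd177, at 1.08. Itga4, the integrin alpha 4 chain, stood at 333 and 79.5 CPM, -1.997, and Itgal, the alpha chain of LFA-1, at 570 and 272 CPM, -1.06. Nlrp3, the inflammasome sensor, stood at 177 and 64.2 CPM, -1.40.

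Of 10 heme and iron genes tested in the core, 2 were at least 2-fold lower in SCD (20%, against 7.54% of all genes) and none higher, with a median of -0.55 against -0.34. Over all Il1b-low cells 1 of 12 was higher, Lcn2 at a log2 ratio of 1.40, and 1 lower (8.33%, against 10.8% of all genes), with a median of -0.21. Hmox1, which degrades heme, stood at 136 and 57.7 CPM, a log2 ratio of -1.17, and over all Il1b-low cells at 115 and 101 CPM, -0.17. Slc40a1, the iron exporter ferroportin, stood at 601 and 206 CPM in the core, -1.52. Fth1, ferritin heavy chain, stood at 5034 and 3145 CPM, -0.68. The NRF2 and antioxidant list had 1 of 15 core genes lower (6.67%), near the share of all genes, and none higher, with a median of -0.26.

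All 3 tested azurophil genes were called higher in the SCD core, with a median of 1.33. Of these, Prtn3 and Serpinb1a reached the 50 CPM needed for testing only in the SCD library, so their direction was set by that limit. The count is therefore no result about azurophil genes. Also called higher were 3 of 11 mature neutrophil genes (27.3%), against 1.45% of all genes. The mature neutrophil list also had 1 gene lower and a median of -0.01. Azurophil transcripts differed outside these cells too: Mpo, Elane, Prtn3, Ctsg and Ms4a3 together took 0.00174% and 0.0173% of UMIs in the wild-type and SCD core, 0.00188% and 0.00826% in MHC class II cells and 0.00310% and 0.0624% in cells other than neutrophils, and the part of free RNA was not tested. Ly6g stood at 196 CPM (177 to 217) and 771 CPM (752 to 790), 3.93-fold higher (3.54 to 4.37, counting error only). Ctse, the endosomal protease cathepsin E, stood at 19.6 and 147 CPM, 7.53-fold higher (5.43 to 10.7). Prok2, a chemokine-like secreted peptide of neutrophils also known as Bv8, stood at 25.9 and 100 CPM, a log2 ratio of 1.77. Chil3 stood at 70.9 and 204 CPM, 1.46, and Serpinb1a at 38.6 and 86.2 CPM, 1.07. Prtn3, proteinase 3 of azurophil granules, stood at 5.82 and 73.1 CPM, resting on 11 wild-type UMIs, and core Il1b-rich cells had 5.29 and 67.3 CPM.

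Thymosin and galectin genes turned on the choice of cells. Lgals1, galectin 1, stood at 26.4 and 137 CPM in the core, a log2 ratio of 2.17, but at 327 and 222 CPM over all Il1b-low cells, -0.54. Tmsb10, an actin-binding thymosin, stood at 220 and 645 CPM in the core, 1.53, and at 1069 and 959 CPM over all, -0.16. In the wild-type library 50 of 1304 Lgals1 UMIs and 416 of 4270 Tmsb10 UMIs of the Il1b-low cells lay in the core, and in the SCD library 1125 of 2326 and 5307 of 10036 did. The histone genes Hist1h2ap and Hist1h2ae had log2 ratios of 2.13 and 2.18 in the core and 2.76 and 2.58 over all.

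The specific granule and gelatinase lists had medians above that of all genes, -0.34. Serpinb1a is on both the azurophil and the specific granule list, and was counted as higher in each. It reached the 50 CPM needed for testing only in the SCD library, so in both counts its direction was set by that limit. Of the 2 specific granule genes counted next, the other was Chil3. The specific granule list had 2 of 12 tested core genes at least 2-fold higher (16.7%, against 1.45% of all genes) and none lower, with a median of 0.33, and the gelatinase list 1 of 12 (8.33%), with a median of 0.04. Retnlg stood at 22123 and 44942 CPM, 2.03-fold higher (2.01 to 2.05), Mmp8 at 1350 and 2573 CPM, 1.91-fold (1.83 to 1.99), and Stfa2l1 at 513 and 509 CPM. Thinned to equal depth, an Mmp8 UMI was found in 41.7% of wild-type and 77.6% of SCD core cells and a Ly6g UMI in 9.20% and 46.9%, against 0.344% and 2.32%, and 0.241% and 0.697%, of MHC class II cells. Without thinning the Mmp8 shares were 58.3% and 92.1% and the Ly6g shares 19.7% and 78.0%. The glycolysis list had none of its genes past 2-fold, with a median of 0.20 and Gapdh at 891 and 1310 CPM, and the NADPH oxidase list had a median of 0.14.

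The interferon list had 1 of 16 tested core genes at least 2-fold lower (6.25%, against 7.54% of all genes), Irf1, a transcription factor, and none higher, with a median of -0.17 against -0.34. Trim12a stood at 115 and 4.98 CPM and Trim30d at 58.2 and 0.607 CPM in the wild-type and SCD core, and since both TRIM genes have near-identical copies whose reads could be split between them, their values are uncertain. Apol7c, an apolipoprotein L gene, stood at 102 and 1.34 CPM.

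**Figure D4:**
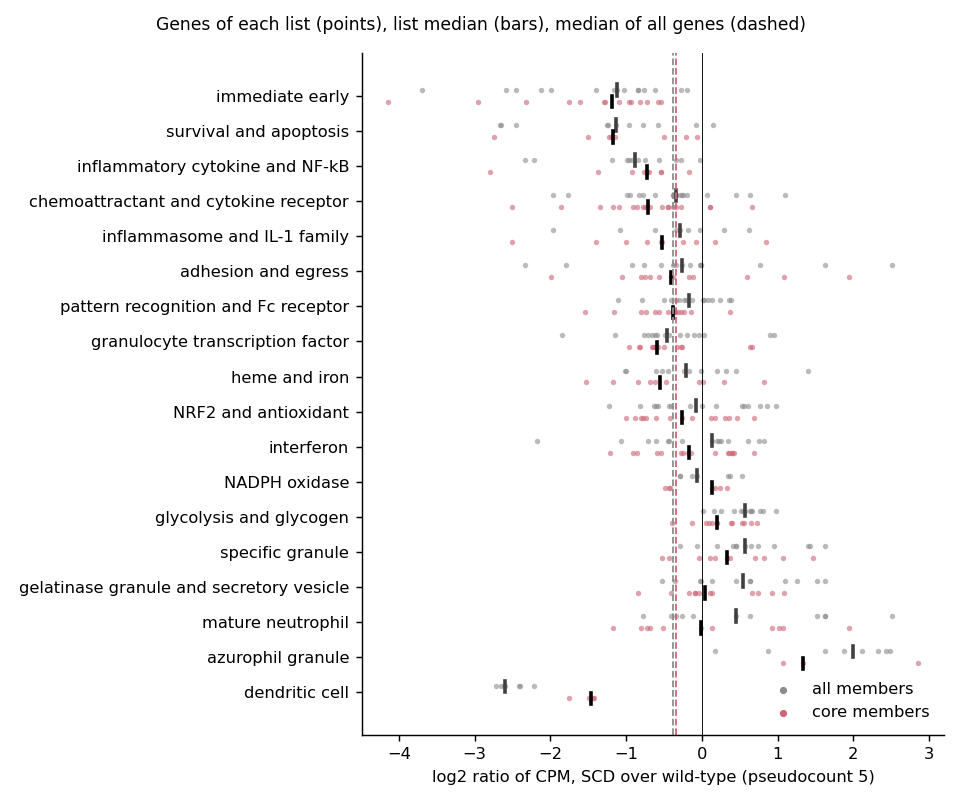
Log2 ratio of CPM (pseudocount 5) of the SCD over the wild-type library for the tested genes of 18 lists, over all mature neutrophils with little Il1b (grey) and over the core (red), with list medians as bars and the medians of all genes, -0.37 and -0.34, dashed. Immediate early genes, with core median -1.18, lie left of the dashed lines. Azurophil genes, with core median 1.33 over 3 genes, lie right, but Prtn3 and Serpinb1a were tested only through their SCD level.

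Since the 2 libraries filled different ranges of S100a8 and S100a9, core cells were compared within ranges of that share, chosen after the data were seen. At 30% or more, with 124 wild-type and 1356 SCD cells, 23 of 2017 genes (1.14%) were at least 2-fold higher and 14 (0.694%) lower in SCD. At 20 to under 30%, with 169 and 286 cells, 99 (3.97%) and 86 (3.45%) of 2493 were. At 10 to under 20%, with 174 and 64 cells, 682 (21.3%) were higher and 518 (16.2%) lower of 3205, and at 1 to under 10%, with 121 and 72 cells, 532 (13.8%) and 630 (16.3%) of 3860. The ranges also differed in UMIs. In the SCD cells Il1r2, of the mature neutrophil list, rested on 27 UMIs at 67.3 CPM in the range from 10 to under 20%. At 30% or more it rested on 450 UMIs at 70.8 CPM there, and on 38 UMIs at 67.1 CPM in the wild-type cells. With fewer UMIs counting error is larger, so the counts cannot be set against each other between ranges. Why they differ was not tested.

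In the highest range most maturation genes were level. Retnlg stood at 49066 and 50914 CPM, Mmp8 at 3065 and 2832 CPM, Lcn2 at 4955 and 4398 CPM and Csf3r at 1051 and 896 CPM, log2 ratios of 0.05, -0.11, -0.17 and -0.23. Cxcr2 had -0.20 and Cd177 -0.12. Of the genes followed by range, Fos was still lower, at 154 and 16.5 CPM, a log2 ratio of -2.88, as were Dusp1 at 297 and 89.4 CPM, -1.68, and Trim12a at 101 and 5.04 CPM, -3.40. Trim30d, at -2.65, Fgl2, at -1.14, and Junb, at -0.88, were lower too. Wfdc17 was higher, at 473 and 1201 CPM, 1.33, as were Ly6g at 509 and 866 CPM, 0.76, Ifitm1 at 352 and 642 CPM, 0.86, and Elane at 1.77 and 28.6 CPM, 2.31, resting on 1 wild-type UMI.

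In the range from 20 to under 30%, the maturation genes separated the libraries. Retnlg stood at 17796 and 37185 CPM, a log2 ratio of 1.06, Mmp8 at 958 and 2514 CPM, 1.39, and Ly6g at 113 and 681 CPM, 2.53. Csf3r stood at 2735 and 1601 CPM, -0.77, and Fgl2, a secreted fibrinogen-like protein, at 816 and 239 CPM, -1.75. Across the 4 ranges Ly6g was higher and Fos, Dusp1, Junb and Trim12a were lower in SCD in each, whereas Wfdc17 was near level below 20%, at log2 ratios of -0.12 and -0.17, and higher above it. Camp and Ngp, genes of the rule, stood at 731 and 694 CPM in the SCD cells of the lowest range. In its wild-type cells they stood at 70.9 and 68.3 CPM. Their log2 ratios were 3.28 and 3.25 there, 3.29 and 2.52 at 20 to under 30% and -0.07 and -0.49 at 30% or more. Free neutrophil RNA was higher in the SCD library, and its part in these values was not tested.

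**Figure D5:**
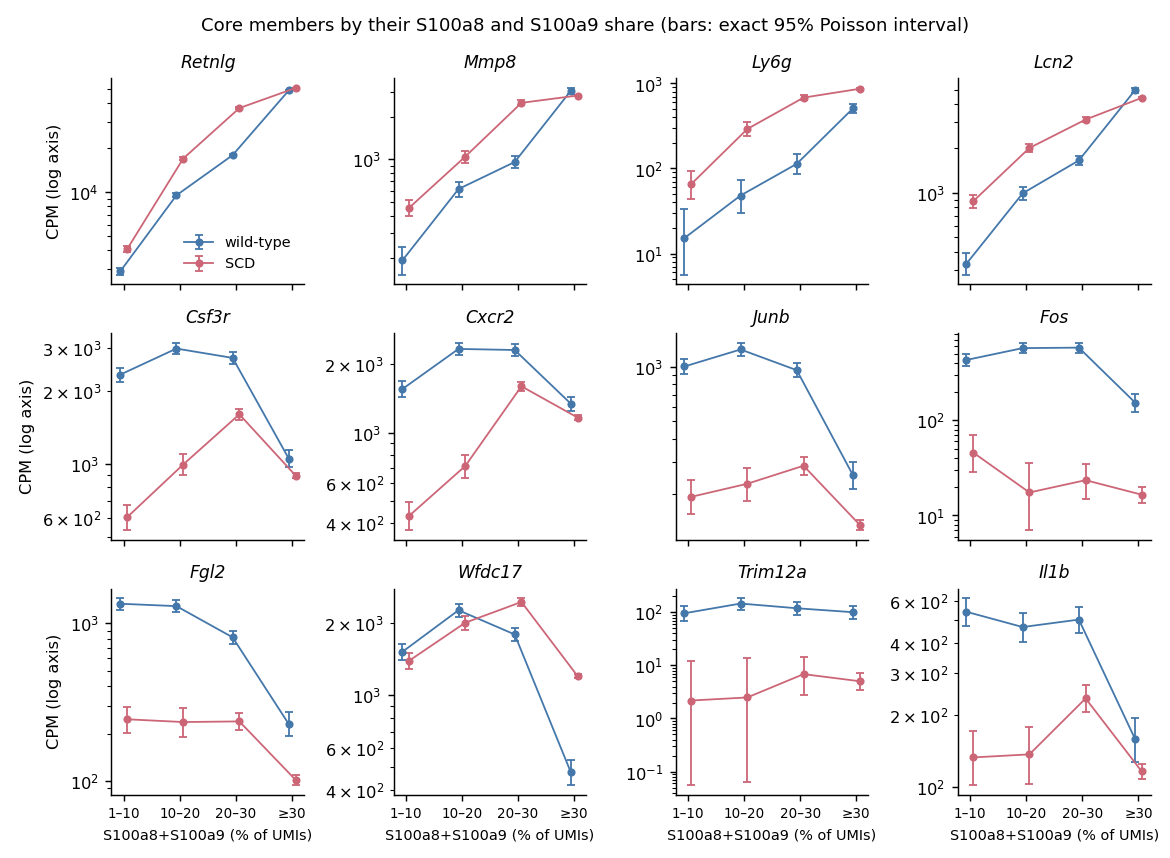
CPM (log axis) of 12 genes in core mature neutrophils with little Il1b, by the share of UMIs from S100a8 and S100a9 (%), for the wild-type (blue) and SCD (red) library with exact 95% Poisson intervals. Retnlg, Mmp8, Csf3r and Cxcr2 come together at 30% or more, while Fos stays apart at 154 and 16.5 CPM.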

How the data were processed

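Droplet 3' libraries of spleen cells were analysed, 1 for each genotype, 1 mouse each. The authors deposited raw UMI counts per gene and barcode, and the submitters' processing notes name Cell Ranger 4.0.0, Seurat 3.2.3, Scanpy 1.6.0, R 4.4 and GRCm38.p6. From these deposited counts, the UMIs of the cells of a class were summed in each library and scaled to CPM (counts per 1000000). Log2 ratios were taken with a pseudocount of 5 CPM. A gene was tested for size when it had at least 50 CPM and 20 UMIs in 1 library or more, and was called at 2-fold. With 1 sample in each group no test was possible and no p-value is given. Intervals were exact (Poisson for CPM, Clopper-Pearson for shares, conditional for ratios) at 95% and cover counting error only. Total UMIs per library and medians per cell, in the report, set this precision.

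Groups came from the labels. Named genes were those with the largest smaller-of-2-library log2 ratio against another class, 8 in each direction where so many passed, or the largest log2 ratio between libraries, 10 in each direction, and genes of 396 listed symbols, of which 391 were found under their own name, 2 by RefSeq synonyms and 3 not. The members and lists were chosen with earlier results of these data known, and the core and the S100 ranges after the data were seen. Doublets were called with Scrublet in Scanpy 1.11.5 (expected share 8%), which marked 353 and 251 kept cells, and were removed in alternatives only. Free RNA was not subtracted. Python 3.11.15, numpy 2.4.6, scipy 1.17.1 and pandas 2.3.3 were used. The log2 ratio, its 2-fold call and its interval were tested on simulated UMI sums.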

Additional observations from a re-analysis of the deposited data

Results flagged for a closer look

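Some cells above the upper gene limit, which the comparisons do not use, also met the remaining limits of the rule. In the SCD library they were 82 of 11858 cells with no upper limit on genes (0.692%, exact 95% interval 0.5504 to 0.858%), and in the wild-type library 13 of 9720 (0.134%, 0.0712 to 0.229%). The SCD cells had a median of 64785.5 UMIs and 2.94% of UMIs from S100a8 and S100a9, and 21 of them carried azurophil and 27 other-type transcripts at 0.5% or more. They were singled out because the share in the SCD library was above that in the control library.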

How the results depend on the processing

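No paired analysis was possible because there was 1 mouse for each genotype. The ratio of shares of kept cells, 2.33, was 2.70 without doublets, 2.13 and 2.57 with Camp, Ngp and Ltf under 0.5% and 2%, 5.69 with no Il1b UMI, 2.72 with S100a8 and S100a9 at 5% or more and 7.31 at 25% or more, 1.55 after thinning to 1000 UMIs, 2.71 without other-type cells, 2.68 in the core and 2.65 in the core without doublets. The ratio among neutrophils, 1.59, was 1.82 without doublets, 1.45 and 1.75 with Camp, Ngp and Ltf under 0.5% and 2%, 3.89 with no Il1b UMI, 1.06 after thinning, 1.80 without other-type cells, 1.81 in the core and 1.83 in the core without doublets.

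Genes higher in SCD, 68, numbered 116 with no upper gene limit, 39 at 5% and 19 at 25% S100, 36 in the core, 34 in the core without doublets, 136 with no minimum level and 147 with median-of-ratios scaling. Genes lower, 317, numbered 176 without doublets, 88 with no Il1b UMI, 180 at 5% and 21 at 25% S100, 192 without other-type cells, 187 in the core, 182 in the core without doublets, 879 with no minimum, 171 with median-of-ratios scaling and 207 with each cell weighted alike. Against Il1b-rich cells, the 123 higher genes numbered 427 with no upper limit, 27 with no Il1b UMI, 57 and 39 at 5% and 25% S100, 49 without other-type cells, 26 in the core, 24 in the core without doublets, 368 with no minimum and 33 with cells weighted alike. The 68 lower genes numbered 29 without doublets, 145 with no upper limit, 19 and 35 at 5% and 25% S100, 14 thinned, 11 without other-type cells, 7 in the core, 8 in the core without doublets, 39 with a pseudocount of 20, 38 with median-of-ratios scaling and 4 with cells weighted alike. Against transitional cells, the 56 higher genes numbered 34 with no upper limit, 97 with no minimum and 112 with cells weighted alike, and the 32 lower ones 18 with no Il1b UMI, 49 in the core without doublets and 51 with cells weighted alike.

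Signs turned for 7 genes named over all Il1b-low cells. Ace, lower in SCD, had log2 ratios of 0.47 with no Il1b UMI and 0.12 at 25% S100. Against Il1b-rich cells, Elane had -0.027 in the core, -0.011 in the core without doublets and -0.50 at 25% S100, and Mpo -0.13, -0.11 and -0.017. At 25% S100, Prtn3 had -0.37, Ctsg -0.71, Crip1 -0.20 and S100a10 -0.29, and with no Il1b UMI Crip1 had -0.33 and S100a10 -0.071. Of the named genes' other log2 ratios, 316, 221 and 268 stayed near their main values in the 3 comparisons and 22, 39 and 4 moved without turning. The cause was not tested. The Il1b limit rests on few UMIs per cell, so depth limits which cells it admits.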
